A study of Mus musculus with 10 samples.

Results

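The nuclear genes of the oxidative phosphorylation machinery were followed in RNA sequencing libraries of mouse intestinal tissue. Members were the genes whose symbol begins with Nduf and a subunit letter and number, Uqcr, Cox4 to Cox8 or Atp5, or is Sdha, Sdhb, Sdhc or Sdhd, which leaves out the Ndufaf assembly factors. This gave 82 of 19456 genes: 35 of complex I, 4 of complex II, 8 of complex III, 18 of complex IV and 15 of complex V. Atp5s and Atp5sl also matched by symbol, but are not counted with any complex. Ndufa4 and its copy Ndufa4l2, named for complex I, were placed with complex IV, as was Cox7a2l, a factor that joins complexes III and IV. The subunit genes Ndufab1, Cyc1 and Usmg5 do not match the symbols and are not members.

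All mice were of the C57BL/6 strain, either wild type (WT) or transgenic for overexpressed ITGB6 (TG), the beta subunit of an epithelial integrin that activates TGF-beta. Untreated tissue gave 3 WT and 3 TG libraries, and tissue of mice given 2.5% dextran sulfate sodium (DSS) by mouth, used as a model of intestinal fibrosis, gave 2 WT and 2 TG libraries. The labels give no age, DSS schedule, promoter of the transgene or transgenic line, and nothing in them ties each library to its own animal; the p-values therefore reflect only variation among these libraries, some of which may be technical. Each library held 15393859 to 18284704 expected counts. The female transcript Xist was at most 0.421 CPM (counts scaled to a common library size) in every untreated library and at least 307 CPM in every DSS library, so DSS and sex cannot be told apart in any comparison of DSS with untreated tissue.

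Oxidative phosphorylation makes ATP in the inner mitochondrial membrane. Complex I takes electrons from NADH and complex II from succinate; both pass them through ubiquinone to complex III, and cytochrome c carries them on to complex IV, which reduces oxygen. Complexes I, III and IV pump protons, and complex V, the ATP synthase, uses their return. Colonocytes rely on this route to burn butyrate. A small set of core subunits of every complex except complex II is encoded in mitochondrial DNA. None of those 13 genes is listed in the tables, so what follows concerns the nuclear subunits.

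The subunit genes were among the abundant transcripts of the tissue. Together the 82 members held 2.01 to 2.34% of all counts in a library, and 78 of the 82 had a count in every library. On the FPKM scale, which divides by gene length so that genes can be compared, the median mean level was 163 for complex I, 231 for complex II, 352 for complex III and 436 for complex V. It was 532 over the 14 tested genes of complex IV and 262 over all 18. The highest gene of complex I was Ndufb9, an accessory subunit, at 334 to 432 FPKM across libraries. In complex II it was Sdhb, the iron-sulfur subunit, at 217 to 287 FPKM. Uqcrh, the hinge protein beside cytochrome c1, led complex III at 401 to 516 FPKM. The highest levels of all were those of Cox6a1 in complex IV (1251 to 1680 FPKM) and Atp5b, the catalytic beta subunit of ATP synthase (1096 to 1616 FPKM). The lowest in complex I was Ndufa11, a membrane-arm subunit, with a mean of 34.2 FPKM.

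**Figure D1:**
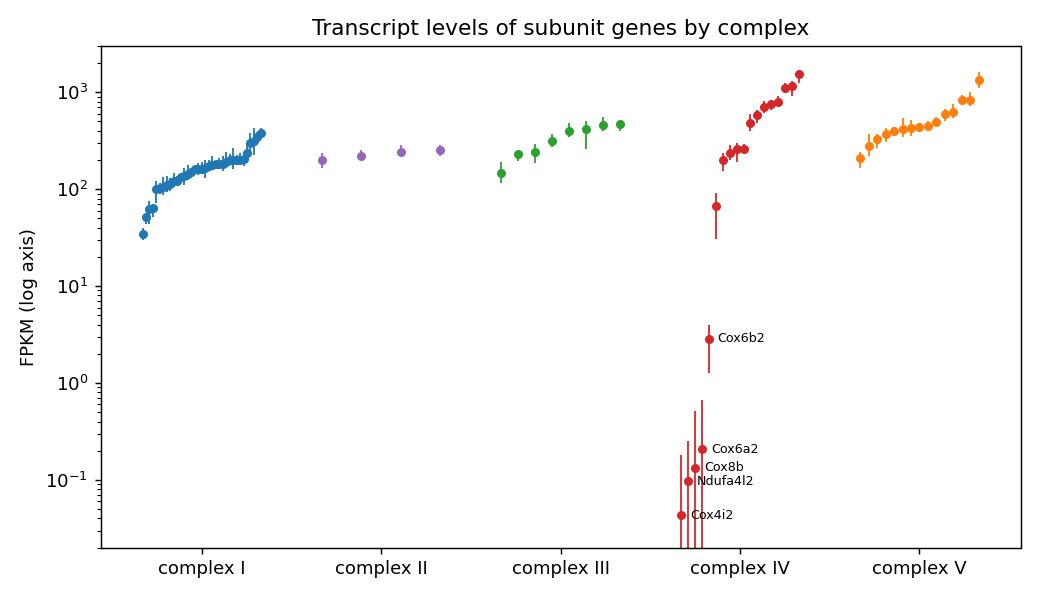
FPKM (log axis) of each subunit gene by complex, as the mean of 10 libraries (point) and the range from lowest to highest library (line; a line that reaches the lower edge ends at 0 or below the axis). Most genes lie between 34.2 and 1525 FPKM, and Cox6b2, Cox6a2, Cox8b, Ndufa4l2 and Cox4i2 lie below 10.

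Several complex IV subunits exist as a widely used copy and a copy restricted to other tissues, and here the widely used copy held nearly all of the counts. Cox4i1, the ubiquitous form of subunit 4, had 12043 to 17764 counts per library, against 0 to 2 counts for Cox4i2, the form of lung. Cox6a1 had 11381 to 15553 counts, against 0 to 7 for Cox6a2, the heart and muscle form. Cox8a had 8652 to 11916 counts, against 0 to 3 for the muscle form Cox8b. Ndufa4 had 1537 to 2281 counts, against 0 to 4 for the hypoxia-linked copy Ndufa4l2. These 4 scarce copies fell below the count filter and were not tested. Cox6b2, the testis form, passed the filter with 10 to 33 counts, against 5466 to 8064 for Cox6b1. Cox7a1, the heart and muscle form, was the exception in level: its mean was 66.7 FPKM, beside 262 for the liver form Cox7a2 and 201 for Cox7a2l. The 3 genes for the proton-carrying c subunit of ATP synthase make the same mature protein, and all 3 were abundant, with means of 432 FPKM for Atp5g1, 398 for Atp5g2 and 827 for Atp5g3. The smooth and striated muscle markers (Myh11, Acta2, Des, Tagln and Ckm) summed to 6.45 to 10.9 CPM in a library, and the 8 colonocyte markers to 14900 to 25003 CPM.

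The members varied little between libraries, but most are abundant, and they were not compared with genes of like level. The highest library of a member read a median of 1.45 times the lowest, against 1.89 over all 14072 genes tested, and the ratio was under 2 for 75 of 78 members (96.2%) and for 53.8% of all genes tested. It ran from 1.16 for Ndufb5, an accessory subunit of complex I, to 3.44 for Cox6b2. The whole set did not shift by the same amount in all libraries. On log2(CPM + 0.5), the median difference of the 78 members from the untreated WT mean was 0.22, 0.08 and 0.04 in TG untreated 1, 2 and 3, then 0.12 and -0.05 in the WT DSS libraries and 0.22 and 0.28 in the TG DSS libraries. The same median over all genes tested stayed between -0.02 and 0.01. In the DSS libraries the median of complex I was the highest of the 5 complexes, at 0.19, 0.02, 0.26 and 0.38, and that of complex II the lowest, at -0.05, -0.18, -0.03 and 0.08. Complex IV was close to complex II in WT DSS 2 (-0.16), as was complex III in TG DSS 2 (0.11). No complex II gene is under 1000 bases, and all 25 members of 1000 bases or more read -0.06, -0.14, -0.08 and 0.01 in the same libraries.

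**Figure D2:**
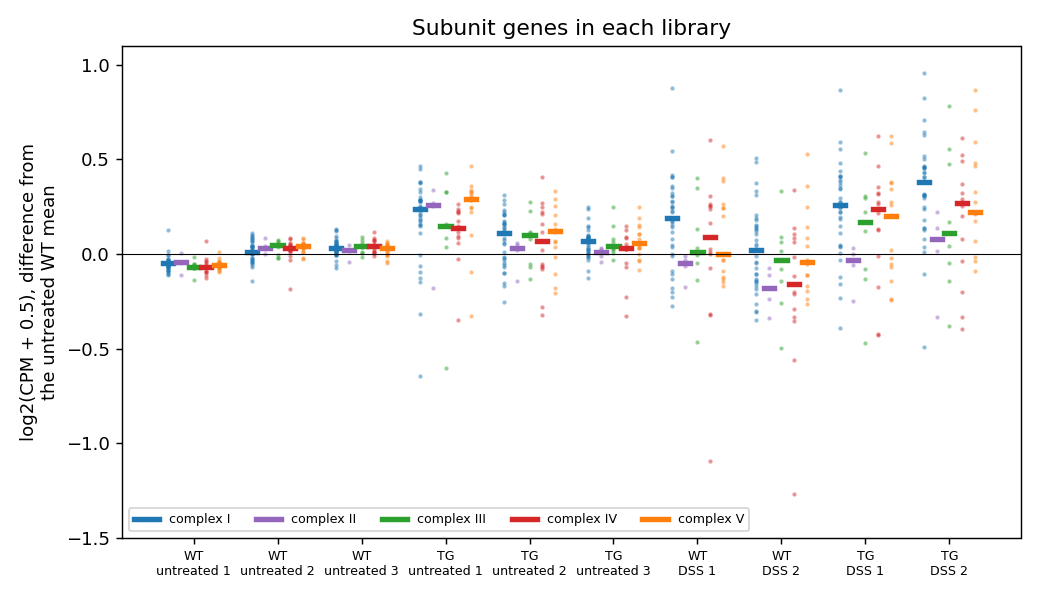
Difference of each tested subunit gene from the untreated WT mean in each of the 10 libraries, on log2(CPM + 0.5). Small points are genes and thick bars are the median of each complex; the bars of TG untreated 1 lie at 0.14 to 0.29, that of complex I in TG DSS 2 is the highest (0.38), and in each DSS library that of complex II is the lowest.

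In untreated tissue, no subunit gene passed the test between TG and WT. The count was 0 of 78 members by edgeR (quasi-likelihood, p-values adjusted by Benjamini-Hochberg), where 3.7% of all genes tested passed. It was 0 by DESeq2, where 1041 of all genes tested passed. By either tool 9 members were at an unadjusted p under 0.05, beside 2919 of 14072 genes tested by edgeR. All 78 fold changes lay within 0.5 of 0 on the log2 scale, from -0.27 to 0.32, as did 80.9% of all genes tested, and for 67 members the 95% interval also lay within 0.5. The median over members was 0.11 (64 of 78 above 0), against -0.02 over all genes tested. The median was 0.12 in complex I, 0.11 in complex II, 0.06 in complex III, 0.07 in complex IV and 0.11 in complex V.

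The smallest adjusted p in untreated tissue belonged to Uqcrq, a small subunit of complex III. It read 171, 185 and 185 CPM in WT and 243, 218 and 214 CPM in TG, with a log2 fold change of 0.32 (SE 0.10, adjusted p = 0.116, edgeR). The groups did not overlap, as for 20 members with TG higher and 1 with TG lower. Over all genes tested the share without overlap was 16.7% for TG higher and 15.5% for TG lower. Of the leading genes of each complex, Ndufb9 differed by 0.16 (SE 0.10), Sdhb by 0.10 (SE 0.11), Uqcrh by 0.07 (SE 0.10), Cox6a1 by 0.06 (SE 0.12) and Atp5b by 0.13 (SE 0.12). None of these passed. The median over members was 0.02 under total count scaling, where that of all genes was -0.10, and it came to 0.06 when TG untreated 1 was left out and 0.05 when WT untreated 1 was.

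After DSS, again no subunit gene passed between TG and WT, although most read higher in TG. The count was 0 of 78 members by edgeR and 0 by DESeq2, with 15 and 14 members at an unadjusted p under 0.05. Of all genes tested 0.185% passed by edgeR, with 1578 of 14072 at an unadjusted p under 0.05, and 258 passed by DESeq2. The median log2 fold change over members was 0.20, with 69 of 78 above 0, against -0.01 over all genes tested. Both TG libraries lay above both WT libraries for 54 of 78 members and below for 3, and over all genes tested these shares were 22% and 21.2%. The median was 0.21 in complex I, 0.08 in complex II, 0.18 in complex III, 0.26 in complex IV and 0.19 in complex V.

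Cox4i1 had the largest genotype difference after DSS. It read 830 and 650 CPM in WT and 965 and 1040 CPM in TG, with a log2 fold change of 0.44 (SE 0.15, adjusted p = 0.311, edgeR). The groups did not overlap, and WT DSS 2 was the lowest of the 4 libraries. Ndufb2, an accessory subunit of complex I, read 48.8 and 45.4 CPM in WT and 57.7 and 67.0 in TG (log2 0.41, SE 0.13), and its adjusted p of 0.288 was the smallest among the members. Of the leading genes, Cox6a1 read 766 and 615 CPM in WT and 825 and 911 in TG (log2 0.33, SE 0.15, adjusted p = 0.437, edgeR), and Atp5b 2301 and 2240 against 2135 and 2495 (0.03, SE 0.14, adjusted p = 0.96). The log2 difference was 0.26 for Ndufb9, 0.28 for Sdhb and 0.19 for Uqcrh, and none of these passed.

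The genotype difference after DSS moved with single libraries and with offsets for GC content and length. The median over members was 0.12 without WT DSS 2, 0.14 without TG DSS 2 (with 0 members at an unadjusted p under 0.05), 0.24 without WT DSS 1 and 0.27 without TG DSS 1. With offsets for transcript GC content and length together, an alternative chosen after seeing the data, it was 0.03, and no fit used either alone. Across the 78 members, Spearman's rho of the fold change with transcript GC content was 0.60, and across 13902 genes it was 0.41; genes in these libraries share depth and library chemistry, so this is a description. With length, rho was -0.48 across members, and the median was 0.23 in members under 1000 bases and 0.07 in the longer ones. TG DSS 2 read higher than TG DSS 1 in GC-rich members (rho 0.52), and TG untreated 1 read higher than the other untreated TG libraries in the same way (rho 0.48). Members of low GC content varied in this. Uqcrb, a complex III subunit with 42.2% GC, read 126 CPM in TG untreated 1 against 208 and 195 in TG untreated 2 and 3, while Ndufv2, a core subunit of complex I with 44.4% GC, read 156 CPM against 156 and 143.

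Few members differed between DSS and untreated tissue, in both directions, and here DSS cannot be told apart from sex. In WT, 8 of 78 members passed (10.3%), 5 higher and 3 lower, where 19.8% of all genes tested passed (10.2% higher and 9.62% lower). In TG, 6 of 78 passed (7.69%), 5 higher and 1 lower, where 5.48% of all genes tested passed (3.33% higher and 2.15% lower). The share of members was below the background in WT and near it in TG. In WT the DSS and untreated libraries did not overlap for 27 members higher and 20 lower, beside 3990 and 4087 of 14072 genes tested. In TG they did not overlap for 28 members higher and 10 lower, beside 2693 and 2249 of 14072 genes tested. The median over members was 0.03 in WT and 0.14 in TG, against 0.00 and 0.01 over all genes tested, and 72 and 75 of 78 members lay within 0.5 of 0, as did 68.8% and 78.4% of all genes tested. Without WT DSS 1 the WT median was -0.05, without WT untreated 1 it was -0.01 and without WT DSS 2 it was 0.12. In TG the median was 0.07 without TG DSS 2 and 0.20 without TG DSS 1. Total count scaling moved the WT medians of members and of all genes together, to -0.04 and -0.06.

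The 5 genes Ndufa3, Ndufa12, Atp5k, Atp5e and Uqcrfs1 passed in both genotypes with the same direction. They make up 5 of the 8 genes in WT and 5 of the 6 in TG, and the WT and TG comparisons use different libraries but one estimate of the spread. Uqcrq, Cox7a2l and Atp5sl passed in WT, and Ndufa6 in TG. The genotype by DSS interaction, which tests whether the response differs between genotypes, passed for 0 of 78 members by edgeR and 0 by DESeq2. By either tool 0 members were at an unadjusted p under 0.05. Of all genes tested 0.846% passed by edgeR, with 1703 of 14072 at an unadjusted p under 0.05, and 430 passed by DESeq2. The smallest adjusted p of the interaction was that of Cox4i1, 0.464 by edgeR, with a log2 difference of 0.39 and a 95% interval of -0.04 to 0.83. For 40 of the 78 members the interval of the interaction lay within 0.5 of 0. The leading genes of complexes I to V, none of which passed in any comparison, differed with DSS by 0.18 in WT and 0.27 in TG for Ndufb9, -0.15 and 0.03 for Sdhb, -0.11 and 0.01 for Uqcrh, -0.12 and 0.14 for Cox6a1, and -0.15 and -0.26 for Atp5b.

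**Figure D3:**
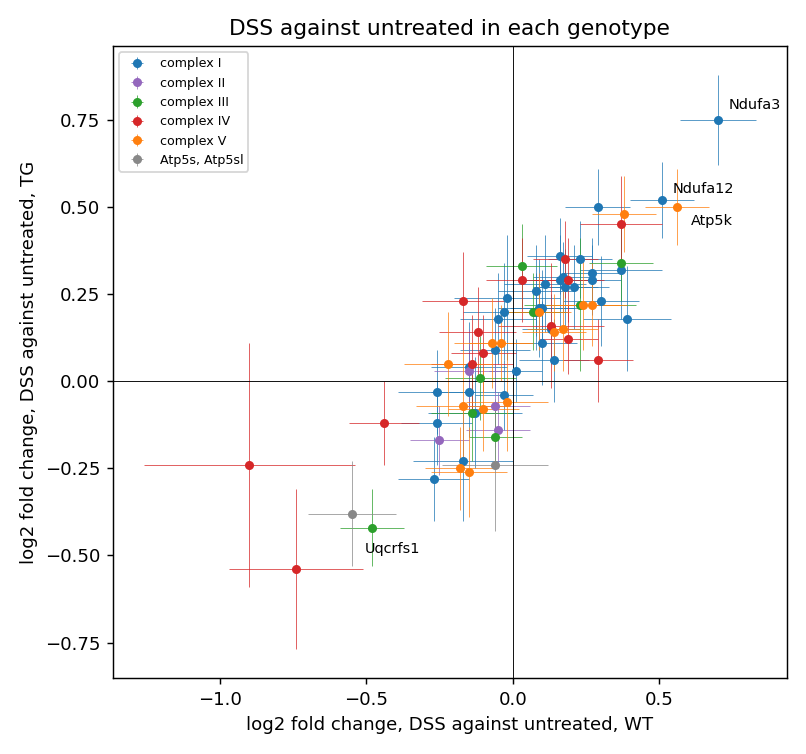
Log2 fold change of DSS against untreated in WT (x axis) and TG (y axis) for the 78 tested members, with standard errors as bars and colour for the complex. Ndufa3 (0.70 in WT and 0.75 in TG), Ndufa12 and Atp5k lie at the upper right and Uqcrfs1 (-0.48 and -0.42) at the lower left, with most members near 0.

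Complex I held the largest rise. Ndufa3 (gene ID 66091, chromosome 7, 3617347 to 3620165, GRCm38), a small accessory subunit of the membrane arm, read 69.8, 73.4 and 82.3 CPM in untreated WT and 138 and 107 CPM in WT after DSS. In TG it read 90.7, 81.8 and 80.3 CPM untreated and 137 and 146 CPM after DSS. All 4 DSS libraries lay above all 6 untreated ones. Ndufa3 rose 1.63-fold in WT (log2 0.70, SE 0.13, adjusted p = 0.00633) and 1.68-fold in TG (0.75, SE 0.13, adjusted p = 0.00961, edgeR). The WT call held in all 23 alternatives, with log2 values of 0.40 to 0.87. The TG call held in 20 of 23 and ended without TG DSS 1, without TG DSS 2 and without TG untreated 1 and TG DSS 2 together, where a lone library is assumed to vary like the other groups.

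Ndufa12 (ID 66414, chromosome 10, 94199035 to 94221440), an accessory subunit of the matrix arm, followed the same order. It read 84.0, 83.0 and 89.6 CPM in untreated WT and 125 and 120 CPM after DSS, and in TG 104, 95.5 and 94.5 CPM untreated and 129 and 152 CPM after DSS. The DSS libraries were again above all untreated ones. Ndufa12 rose 1.43-fold in WT (log2 0.51, SE 0.11, adjusted p = 0.0104) and 1.43-fold in TG (0.52, SE 0.11, adjusted p = 0.0204, edgeR). The WT call held in all 23 alternatives. The TG call held in 17, and among the fits that ended it were those without TG untreated 3 or TG DSS 2, of only the groups compared and with GC and length offsets (log2 0.28).

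Ndufa6 (ID 67130, chromosome 15, 82350139 to 82354291), an accessory subunit of the LYR protein family, passed in TG. It read 135, 149 and 144 CPM untreated and 208 and 194 CPM after DSS, a 1.41-fold rise (log2 0.50, SE 0.11, adjusted p = 0.0253, edgeR). In WT it read 143, 138 and 143 CPM untreated and 189 and 157 CPM after DSS (0.29, SE 0.11, adjusted p = 0.0852). The groups did not overlap in either genotype, and the difference between the genotypes was 0.21 with a 95% interval of -0.14 to 0.55. The Ndufa6 call in TG held in 14 of 23 alternatives. It ended, among others, without WT untreated 1, WT untreated 3, TG untreated 3, TG DSS 1 or TG DSS 2, and with GC and length offsets the log2 value was 0.25 (adjusted p = 0.196, edgeR). No other complex I gene passed, and over all 35 the median was 0.10 in WT and 0.21 in TG, with 23 and 28 above 0.

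Complex II is also the succinate dehydrogenase of the citric acid cycle. No gene of the 4 passed, and all 4 lay below 0 in WT (median -0.11) and 3 of 4 in TG (median -0.10). All 4 genes are over 1000 bases long, and the 25 members of that length had medians of -0.10 in WT and -0.09 in TG. The WT medians of complexes III, IV and V were also slightly below 0, at -0.02, -0.03 and -0.02. Sdha, the flavoprotein that oxidises succinate, read 618, 647 and 643 CPM in untreated WT and 564 and 503 CPM after DSS. Its log2 fold change was -0.25 (SE 0.10, adjusted p = 0.118, edgeR), and in TG it was -0.17 (SE 0.10, adjusted p = 0.417). The WT groups of Sdha did not overlap, as for 20 of 78 members and 4087 of 14072 genes tested that were lower. Sdhc and Sdhd, the membrane anchors, differed by -0.06 and -0.05 in WT and -0.07 and -0.14 in TG.

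In complex III the Rieske iron-sulfur protein fell. Uqcrfs1 (ID 66694, chromosome 13, 30540312 to 30545316), which passes electrons from ubiquinol to cytochrome c1, read 334, 366 and 354 CPM in untreated WT and 254 and 249 CPM after DSS. In TG it read 372, 320 and 358 CPM untreated and 253 and 270 CPM after DSS. All 4 DSS libraries lay below all 6 untreated ones. Uqcrfs1 fell by 0.48 on the log2 scale in WT (SE 0.11, adjusted p = 0.0128) and by 0.42 in TG (SE 0.11, adjusted p = 0.048, edgeR). The WT call held in 21 of 23 alternatives and ended without WT DSS 2 and with the replicate block. The TG call held in 12 of 23, and in 3 of the 10 fits without a library, those without TG untreated 1, TG untreated 2 and WT DSS 1.

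Uqcrq (ID 22272, chromosome 11, 53427922 to 53430831) went the other way in WT, from 171, 185 and 185 CPM to 238 and 227 CPM. It rose 1.29-fold (log2 0.37, SE 0.11, adjusted p = 0.045, edgeR), and in TG, where it read 243, 218 and 214 CPM untreated and 261 and 310 CPM after DSS, the log2 fold change was 0.34 (SE 0.11, adjusted p = 0.112). The Uqcrq call in WT held in 8 of 23 alternatives, and in 2 of the 10 fits without a library, those without TG untreated 1 and TG DSS 1. Its span overlaps that of Gdf9, so reads of the 2 genes may not be fully told apart. The remaining 6 genes of complex III, Uqcrh, Uqcrb, Uqcr10, Uqcr11 and the core proteins Uqcrc1 and Uqcrc2, did not pass, with log2 fold changes of -0.14 to 0.23 in WT and -0.16 to 0.33 in TG.

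In complex IV, 1 gene passed, in WT. Cox7a2l (ID 20463, chromosome 17, 83501917 to 83514333) read 232, 246 and 240 CPM untreated and 191 and 162 CPM after DSS, and it fell by 0.44 (SE 0.12, adjusted p = 0.0303, edgeR). In TG it read 254, 229 and 204 CPM untreated and 212 and 208 CPM after DSS (log2 -0.12, SE 0.12, adjusted p = 0.633), where the groups overlapped. The difference between the genotypes was 0.32 with a 95% interval of -0.06 to 0.69 and did not pass. The WT call of Cox7a2l held in 16 of 23 alternatives and ended with the replicate block and without WT untreated 1, 2 or 3, WT DSS 2, TG DSS 1 or TG DSS 2.

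Cox7a1 lay just outside the threshold in WT. It read 24.7, 28.0 and 28.4 CPM untreated and 21.6 and 10.9 CPM after DSS, with a log2 fold change of -0.74 (SE 0.23, adjusted p = 0.0512, edgeR), and WT DSS 2 was the lowest of all libraries. It passed by DESeq2 and in 10 of 23 alternatives in all. In TG, Cox7a1 read 28.1, 32.2 and 27.5 CPM untreated and 20.0 and 20.4 CPM after DSS (-0.54, SE 0.23, adjusted p = 0.23). Cox6c, a small structural subunit, read 193, 196 and 212 CPM in untreated WT and 304 and 212 CPM after DSS (0.37, SE 0.14, adjusted p = 0.0929), so that its 2 DSS libraries differed widely. The complex IV median was -0.03 in WT and 0.13 in TG.

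In complex V, 2 genes of small subunits rose. Atp5k (ID 11958, chromosome 5, 108433246 to 108434399), the e subunit, which helps ATP synthase form dimers, read 68.7, 72.9 and 71.9 CPM in untreated WT and 106 and 103 CPM after DSS. In TG it read 86.9, 89.9 and 78.5 CPM untreated and 110 and 130 CPM after DSS. No DSS library of Atp5k reached down to an untreated one. Atp5k rose 1.47-fold in WT (log2 0.56, SE 0.11, adjusted p = 0.00816) and 1.41-fold in TG (0.50, SE 0.11, adjusted p = 0.0283, edgeR). Its WT call held in all 23 alternatives, while the TG call held in 12. Among the fits that ended it were those without WT untreated 1, 2 or 3, TG untreated 3, TG DSS 1 or TG DSS 2, on unfiltered log2 FPKM, and with GC and length offsets (log2 0.17, adjusted p = 0.221).

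Atp5e (ID 67126, chromosome 2, 174461075 to 174464101), the epsilon subunit of the central stalk, read 129, 134 and 136 CPM in untreated WT and 176 and 171 CPM after DSS. In TG it read 171, 139 and 148 CPM untreated and 200 and 226 CPM after DSS. The DSS libraries were higher within each genotype, without overlap. Atp5e rose 1.30-fold in WT (log2 0.38, SE 0.11, adjusted p = 0.0415) and 1.39-fold in TG (0.48, SE 0.11, adjusted p = 0.038, edgeR). Each call of Atp5e held in 9 of 23 alternatives. The WT call held in 2 of the 10 fits without a library, those without TG untreated 1 or 2, and the TG call in 3, those without TG untreated 1, WT DSS 1 or WT DSS 2.

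The catalytic core of ATP synthase did not follow. Atp5b read 2420, 2627 and 2524 CPM in untreated WT and 2301 and 2240 CPM after DSS (log2 -0.15, SE 0.13, adjusted p = 0.464, edgeR), and -0.26 in TG (SE 0.13, adjusted p = 0.316). The alpha subunit gene Atp5a1 differed by -0.10 and -0.08, and the gamma subunit gene Atp5c1 by -0.18 and -0.25. The complex V median was -0.02 in WT and 0.11 in TG. Atp5sl (ID 66349, chromosome 7, 25619414 to 25625550), which is not a subunit of ATP synthase, fell by 0.55 in WT (SE 0.15, adjusted p = 0.0303, edgeR), from 54.1, 60.8 and 64.5 CPM to 45.0 and 36.8 CPM, and its call held in 19 of 23 alternatives, ending without WT untreated 2, WT untreated 3 or WT DSS 2 and with the replicate block.

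**Figure D4:**
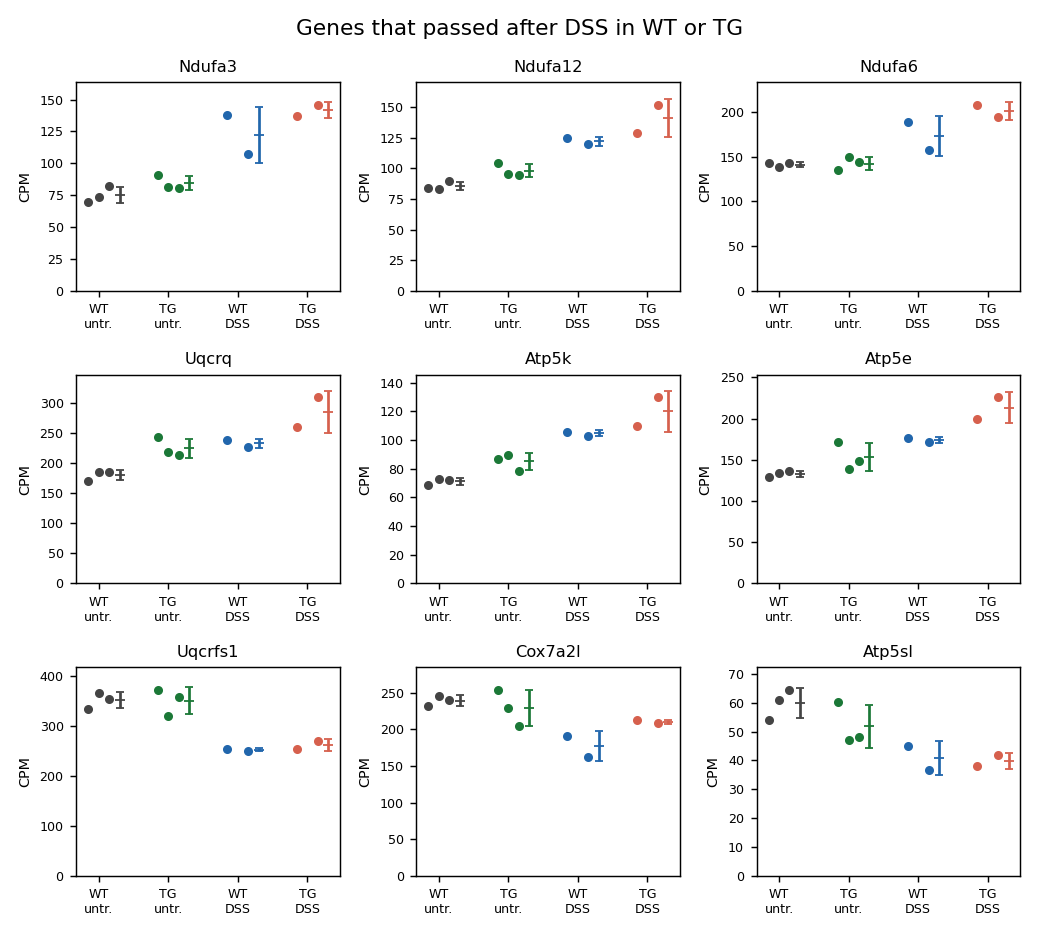
CPM of the 9 genes that passed after DSS in WT or TG, in every library (points), with the group mean and SD beside them (bar; n = 3 untreated and n = 2 after DSS). For Ndufa3, Ndufa12, Ndufa6, Atp5k, Uqcrfs1 and Atp5sl the 4 DSS libraries lie beyond all 6 untreated ones.

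The number of members that passed after DSS depended on single libraries, and so did the number over all genes tested. Of all genes, 2788 passed in WT with all libraries, and 1515, 1501 and 1519 without WT untreated 1, 2 and 3. In TG 771 passed with all libraries, and 545, 627 and 557 without those 3. Without TG untreated 1 the all-gene numbers were 4112 in WT and 1677 in TG, and without TG untreated 3 it was 425 in TG. The WT count of 8 became 5, 4 and 4 on leaving out WT untreated 1, 2 and 3, and it was 4 without WT DSS 2, 5 without TG DSS 2 and 14 without TG untreated 1. The TG count of 6 became 2, 3 and 2 on leaving out the same 3 libraries, 1 on leaving out TG untreated 3 or TG DSS 1, and 10 without TG untreated 1. Without TG DSS 2 the TG count was 0 by edgeR, with 10 members at an unadjusted p under 0.05; DESeq2, not run without that library, called 10 in TG with all libraries. Which genotype had more passing subunit genes changed with the libraries used: without WT DSS 2 there were 4 in WT and 7 in TG.

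The DSS difference varied with transcript length. The members are short: 53 of 78 (67.9%) have a deposited length under 1000 bases, against 8% of all genes tested. The 53 short members had a median log2 fold change of 0.13 in WT and 0.21 in TG, and the other 25 members -0.10 and -0.09. All 1126 tested genes under 1000 bases had medians of 0.17 and 0.18, and the longer genes -0.01 and 0.00. Of the short members 7.55% passed in WT and 9.43% in TG, beside 24.9% and 12% of all short genes. Ndufa3 (349 bases), Atp5k (356) and Atp5e (419) are among the shortest members, and Uqcrfs1 (1313), Cox7a2l (1100) and Atp5sl (1690), which fell, are among the longer ones, as is Uqcrq (1521), which rose in WT. Across members, Spearman's rho of the fold change with length was -0.42 in WT and -0.53 in TG.

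With offsets for GC content and length in the fit, the split of passing members turned towards lower. It became 5 higher and 12 lower in WT, in place of 5 and 3, and 1 higher and 6 lower in TG, in place of 5 and 1. Over all 14072 genes tested, 3695 passed with the offsets in WT, in place of 2788, and 1198 in TG, in place of 771. The direction of these was not counted with the offsets. The medians over members became -0.12 and -0.08, and the complex I median -0.05 in WT and 0.03 in TG. Ndufa3 still passed in both genotypes (0.40 in WT, adjusted p = 0.0227, and 0.42 in TG, adjusted p = 0.0383, edgeR), as did Uqcrfs1 (-0.61, adjusted p = 0.00233, and -0.52, adjusted p = 0.011). Under these offsets Atp5k and Ndufa12 passed in WT (0.30 and 0.27) but not in TG, Atp5e passed in neither and Ndufa6 did not pass in TG. Other scalings gave 3 higher and 5 lower (total count) and 3 and 4 (upper quartile) in WT, and log2 FPKM gave 4 and 7 with a pseudocount of 1 or 0.1 and 3 and 5 unfiltered. In TG these stayed towards higher, at 5 and 1, 4 and 1, 5 and 1 with either pseudocount, and 3 and 1. Of all genes tested, 2846 passed under total count and 2728 under upper quartile scaling in WT, and 815 and 779 in TG. On log2 FPKM 2414 to 2563 passed in WT and 678 to 691 in TG. The offsets remove any difference between libraries that follows GC content or length, so a DSS, sex or genotype difference of that kind would be removed too. Whether length or GC content plays a part in the values without offsets was not tested beyond this.

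**Figure D5:**
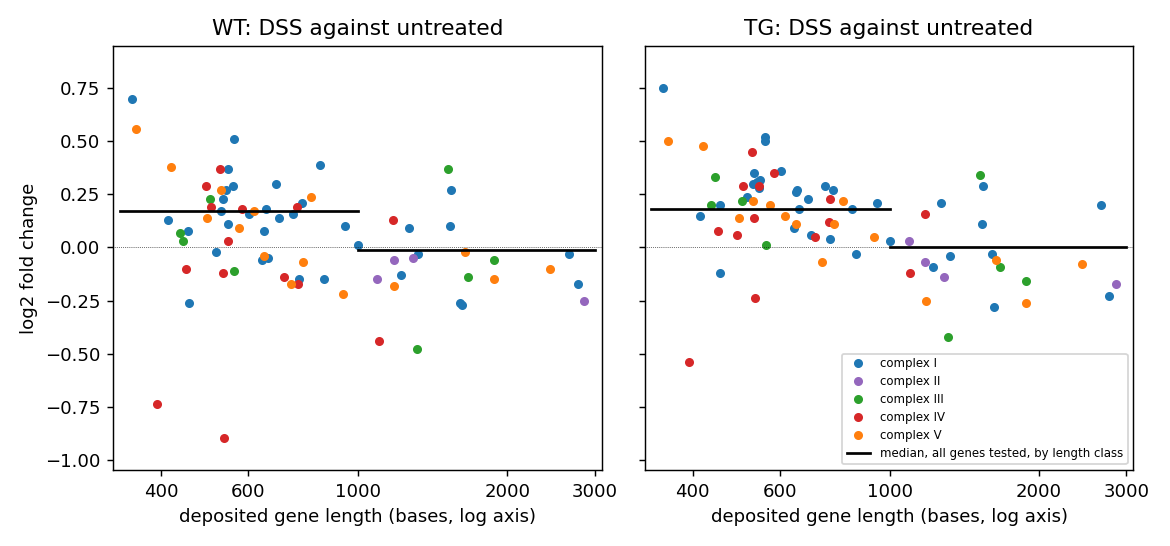
Log2 fold change of DSS against untreated in WT (left) and TG (right) against deposited gene length in bases (log axis), with points for subunit genes coloured by complex and black lines for the median of all genes tested under and over 1000 bases. Short members and short genes in general have medians above 0 (0.13 and 0.17 in WT), and members of 1000 bases or more have a median below it (-0.10 in WT).

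Cell type markers also differed between DSS and untreated tissue. For the counts that follow, 10.2% of all genes tested passed higher and 9.62% lower in WT. In TG these shares were 3.33% and 2.15%. The 8 colonocyte markers summed to 23096 to 25003 CPM in untreated WT and 14900 to 20966 in WT after DSS, with 5 of 8 lower, while in TG they read 21412 to 24826 and 23487 to 24373, with 1 of 8 higher. The 4 neutrophil markers summed to 5.73 to 6.10 CPM in untreated WT and 23.7 to 33.3 after DSS, with 4 of 4 higher, and in TG to 5.26 to 5.70 and 17.3 to 24.4, with 3 of 4 higher. The 5 leukocyte markers summed to 82.6 to 146 CPM in untreated WT and 37.3 to 53.6 after DSS, and in TG to 22.4 to 122 and 33.1 to 38.6. In WT 2 of the 5 were higher (Lyz2 and Itgam) and 1 lower (Cd3e), in TG none passed, and Ptprc, which fell short of the threshold in WT (adjusted p = 0.061, edgeR), held much of the sum. The 6 stem and proliferating cell markers summed to 277 to 316 CPM in untreated WT and 495 to 1093 after DSS (3 higher and 2 lower of 5 tested), and in TG to 215 to 430 and 471 to 486, with 0 passing. The 3 tuft cell markers summed to 15 to 21.4 and 6.54 to 9.69 CPM in WT (3 of 3 lower) and to 19.4 to 22.6 and 8.02 to 9.84 in TG (2 of 3 lower). Of the 4 enteroendocrine markers 2 were higher in WT and 3 in TG, and of the 4 erythrocyte markers 4 were lower in WT and 3 in TG. Goblet cell markers were higher for 1 of 6 in WT and 2 of 6 in TG, fibroblast markers lower for 0 of 4 and 2 of 4, and muscle markers lower for 1 of 4 tested and 0 of 4. The 1 tested endothelial marker was lower in WT. Between genotypes, the 6 goblet cell markers summed to 9218 to 23853 CPM in untreated WT and 27532 to 38601 in untreated TG (1 of 6 higher), and the 4 erythrocyte markers to 8.54 to 9.28 CPM in WT and 49.5 to 169 in TG after DSS (3 of 4 higher). Of the 4 fibroblast markers 2 were higher in untreated TG. Over all genes tested, 3.7% passed between TG and WT untreated and 0.185% between TG and WT after DSS. No marker of the 11 lists was at 0 in every library. In bulk tissue, fewer cells of a type and less RNA per cell cannot be told apart, and the part of these cells in the subunit values was not tested.

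Genes that build and feed the complexes passed after DSS in shares of 0 to 20.8% of a list in WT and 0 to 10.9% in TG, beside 19.8% and 5.48% of all genes tested. By edgeR none of these lists had a passing gene between TG and WT or in the interaction (0 to 12 genes of a list at an unadjusted p under 0.05). Of 46 tested assembly factors, 5 were higher and 0 lower in each genotype (10.9% in each, beside 10.2% of all genes tested higher in WT and 3.33% in TG; medians 0.02 in WT and -0.02 in TG). Uqcc2, which helps assemble complex III, read 25.6, 25.9 and 26.1 CPM in untreated WT and 41.4 and 44.5 after DSS (log2 0.73, SE 0.13, adjusted p = 0.00551, edgeR), and it rose by 0.67 in TG. Cox17, the copper chaperone of complex IV, rose by 0.47 in WT and 0.65 in TG. Ndufaf2, an assembly factor of complex I, rose by 0.83 and Cox18, a membrane insertase, by 0.60 in WT, and Pet100 and Cmc1, both of complex IV assembly, rose by 0.71 and 0.58 in TG. The mitochondrial ribosome, which translates the mitochondrially encoded subunits, had 77 genes tested. In WT 16 of them were higher and 0 lower (20.8%, beside 10.2% of all genes tested higher), with a median of 0.28. In TG 2 were higher and 0 lower (2.6%, beside 3.33% of all genes tested higher), with a median of 0.12. Mrps21 rose by 0.65 in WT and 0.63 in TG.

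Upstream of the chain, no gene of 17 in the citric acid cycle and pyruvate dehydrogenase passed by edgeR in either genotype. The medians were -0.13 in WT and -0.09 in TG, and 2 of 17 lay above 0 in each genotype. At an unadjusted p under 0.05 were 1 and 2 genes, beside 4733 and 2826 of 14072 genes tested. DESeq2 counts were not made for the lists of this and the preceding paragraph. Of 25 carriers and electron shuttles, 1 was higher and 2 lower in WT (12%): Coq5, of ubiquinone synthesis, rose by 0.38, and Adck3, a ubiquinone synthesis kinase, fell by 0.72, as did the outer membrane channel gene Vdac3 by 0.39. In TG, 1 of the 25 passed (4%): Etfb, an electron transfer flavoprotein subunit, rose by 0.43. Of 16 regulators of mitochondrial gene expression, 1 passed in WT (6.25%): Esrra, a nuclear receptor that drives many of these genes, fell by 0.40 (SE 0.13, adjusted p = 0.049, edgeR), from 239, 256 and 247 CPM to 202 and 173 CPM. These calls were lost in 16 of 23 alternatives for Coq5, 13 for Etfb and 11 for Esrra.

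Glycolysis genes, by contrast, held larger single changes. Of 16 tested, 1 was higher and 3 lower in WT (25%, beside 19.8% of all genes tested), and 1 was higher in TG (6.25%, beside 5.48%). Hk2, the inducible hexokinase, read 115, 135 and 115 CPM in untreated WT and 526 and 340 CPM after DSS (log2 1.83, SE 0.17, adjusted p = 0.000186, edgeR), and it rose by 0.85 in TG (SE 0.17, adjusted p = 0.0194), from 171, 167 and 203 CPM to 336 and 315 CPM. Ldhb, a lactate dehydrogenase subunit, fell by 1.32 in WT, and the phosphofructokinase genes Pfkm and Pfkl fell by 0.98 and 0.50. The change in Hk2 was larger than that of any of the 78 tested members. Their log2 fold changes ran from -0.90 to 0.70 in WT and from -0.54 to 0.75 in TG.

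Promoters were read from RefSeq (GRCm38.p6) for 68 of the 82 members, from 250 bases before to 30 bases after the annotated start. The sequences below are of genes that passed between DSS and untreated tissue in both genotypes. Of those 5 genes, Atp5e is not printed, and its window held 1 ETS match. Sdha, which did not pass, is given as the member of complex II. Capitals mark motif matches on either strand, and each sequence is written 5′ to 3′ on the strand of the gene. The windows lie at chr7:3617123-3617402, plus strand for Ndufa3, chr10:94198785-94199064, plus strand for Ndufa12, chr5:108434370-108434649, minus strand for Atp5k, chr13:30545287-30545566, minus strand for Uqcrfs1 and chr13:74350211-74350490, minus strand for Sdha.
Ndufa3: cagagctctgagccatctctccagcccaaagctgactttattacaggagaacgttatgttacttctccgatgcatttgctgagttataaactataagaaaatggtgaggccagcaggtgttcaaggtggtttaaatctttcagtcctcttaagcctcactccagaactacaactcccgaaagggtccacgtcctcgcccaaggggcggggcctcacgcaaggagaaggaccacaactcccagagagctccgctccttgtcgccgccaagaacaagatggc
Ndufa12: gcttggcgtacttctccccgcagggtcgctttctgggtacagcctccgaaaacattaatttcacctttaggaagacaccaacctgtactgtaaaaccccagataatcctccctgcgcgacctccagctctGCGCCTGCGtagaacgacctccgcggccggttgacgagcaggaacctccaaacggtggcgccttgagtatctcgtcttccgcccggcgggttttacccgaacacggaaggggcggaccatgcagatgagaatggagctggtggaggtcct
Atp5k: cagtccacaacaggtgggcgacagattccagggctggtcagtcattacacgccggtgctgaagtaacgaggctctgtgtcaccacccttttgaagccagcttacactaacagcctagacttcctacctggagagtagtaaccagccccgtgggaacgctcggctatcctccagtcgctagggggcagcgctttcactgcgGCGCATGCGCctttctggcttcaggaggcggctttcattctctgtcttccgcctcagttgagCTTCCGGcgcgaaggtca
Uqcrfs1: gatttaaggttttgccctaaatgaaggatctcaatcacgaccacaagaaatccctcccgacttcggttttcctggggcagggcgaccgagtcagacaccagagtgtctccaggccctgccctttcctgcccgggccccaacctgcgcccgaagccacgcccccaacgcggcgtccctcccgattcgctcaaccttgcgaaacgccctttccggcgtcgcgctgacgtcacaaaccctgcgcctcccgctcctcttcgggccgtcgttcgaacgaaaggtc
Sdha: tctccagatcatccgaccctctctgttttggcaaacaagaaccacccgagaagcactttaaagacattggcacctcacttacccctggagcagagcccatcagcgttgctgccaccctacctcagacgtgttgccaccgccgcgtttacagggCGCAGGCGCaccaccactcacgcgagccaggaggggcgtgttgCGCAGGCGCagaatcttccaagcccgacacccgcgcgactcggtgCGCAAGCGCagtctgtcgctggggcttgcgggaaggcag

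The motifs searched were GCGCNTGCG (NRF1), CCGGAAG (ETS factors such as GABP) and AAGATGGCG (YY1), on both strands, and none of these contains another. NRF1 and GABP are known regulators of nuclear respiratory genes. The NRF1 motif occurred in 34.3% of the 67 tested members with a window and in 13.6% of 11150 tested genes with one. The ETS motif occurred in 23.9% and 18.1%, and the YY1 motif in 2.99% and 2.38%. At least 1 of the 3 was found, in any window of a gene, in 49.3% of these 67 members and 30.2% of the 11150 tested genes. Among tested genes by complex, it was found in 10 of 14 in complex V (71.4%) and 4 of 5 in complex III (80%). The share was 12 of 31 in complex I (38.7%) and 3 of 12 in complex IV (25%). All 3 complex II genes with a window had one, and Sdha held 3 NRF1 matches. Of the genes printed above, Atp5k held 2 overlapping NRF1 matches and 1 ETS match, Ndufa12 held 1 NRF1 match, and Ndufa3 and Uqcrfs1 held none of these letters in the window.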

How the data were processed

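Poly-A RNA of intestinal tissue was sequenced on the BGISEQ-500, per the labels' protocols. Tools listed in the submitters' processing notes, with no roles, are RSEM 1.2.12, HISAT2 2.0.4 and Bowtie2 2.2.5, and the build is mm10. The authors deposited, per library, an expected count, an FPKM value (scaled by the authors for gene length and depth) and a gene length in bases for each gene, per the file headers. Genes not listed in a library were set to 0. Strand handling in counting is not given in the sources used here, so overlapping genes may share reads, and 17 members overlap another listed gene.

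Expected counts, rounded to whole numbers, were filtered with filterByExpr (minimum count 10 and minimum total 15; 14072 genes tested) and normalized by TMM. CPM is the count over the TMM-scaled library size. The model, with a mean for each of the 4 groups, used all 10 libraries in edgeR 4.0.16 (R 4.3.3; quasi-likelihood, 6 residual degrees of freedom), with Benjamini-Hochberg adjustment over all genes tested and a threshold of 0.05. Standard errors are the log2 fold change over the root of F, and 95% intervals use the fit's degrees of freedom. The test was first run on simulated data. Coordinates and promoters are from RefSeq (GRCm38.p6), and transcript GC content from the reference transcripts, matched for all 82 members. Groups came from sample titles.

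Named genes were the passing members, up to 8 in each direction per comparison, the gene of highest mean FPKM in each complex, the paralogs with tissue-restricted copies, and up to 4 passing genes per other list by smallest adjusted p; other members named were chosen after their values were seen. The members, lists and motif letters were chosen with earlier results of these data known. Alternatives were DESeq2 1.42.0, other scalings and filters, limma 3.58.1 on log2(FPKM + 1) or (FPKM + 0.1), with a filter (1 FPKM in 2 libraries) or none, fits limited to the groups compared, a replicate block and fits without each library. GC and length offsets (loess, span 0.3) and leaving out TG untreated 1 with TG DSS 2 were added after seeing the data.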

Additional observations from a re-analysis of the deposited data

How the results depend on the processing

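With 2 or 3 libraries a group, the median standard error of a member was 0.11 to 0.17 on the log2 scale, and the smallest change that passed was 0.37 (Uqcrq in WT). A tally was made over the genes named by rule, which are passing members, passing genes of the other lists and the leading gene of each complex. In it 1229 comparisons of an alternative with the reported value kept direction and call, and 214 lost the call. A call was gained in 1 (Uqcrh in WT, with GC and length offsets), and none turned to the other direction. The leading genes passed in no comparison and had no call to lose, so the total says little about the calls. Among passing members a call held in 8 of 23 alternatives (Uqcrq in WT) to all 23 (such as Ndufa3 in WT). Other members gained calls outside this tally, such as Cox7a1 in 10 and Sdha in 5 of 23 alternatives in WT. Between TG and WT untreated, 0 of the 78 tested members passed on unfiltered log2 FPKM, where 441 of all genes in that fit passed. The scarce Ndufa4l2, with 0 to 4 counts, is not among those 78. The median over members in that comparison was 0.02 under total count scaling and with log2 FPKM at either pseudocount, 0.01 on unfiltered log2 FPKM, -0.02 with the offsets and 0.05 to 0.14 without a library. After DSS the genotype median was 0.12 on unfiltered log2 FPKM, 0.03 with the offsets and 0.12 to 0.27 without a library. In WT the number passing after DSS was 17 with the offsets, 13 without TG untreated 1 and TG DSS 2 together, and 4 to 14 without a library, and the median was -0.12 with the offsets and -0.05 to 0.12 without a library. In TG the number was 10 by DESeq2, 1 in a fit of only the groups compared, 0 without TG untreated 1 and TG DSS 2 together (19 at an unadjusted p under 0.05) and 0 to 10 without a library, and the median was -0.08 with the offsets and 0.07 to 0.20 without a library. Over all genes tested in each fit, 3695 passed after DSS in WT and 1198 in TG with the offsets. In TG, 1244 of all genes passed by DESeq2 and 395 in a fit of only the groups compared. The interaction median over members was 0.00 to 0.16 without a library. Fits of only the groups compared give no interaction. Beyond the smaller number of libraries in some fits, the cause of these shifts was not tested. Replicate numbers appear in all groups, but same-numbered libraries did not deviate together in every pair (correlations of 0.0831, -0.0133 and -0.186 between untreated WT and TG). Between the DSS libraries of WT and TG the correlation was 0.206. With 2 libraries in each DSS group the deviations mirror each other, so both numbers give this same value and count as 1 result. Same-numbered libraries are taken to share only a number. With the replicate block, 3 members passed after DSS in WT and 1 in TG, where 1614 and 356 of all genes tested passed. The block left 0 members passing in both genotype comparisons and the interaction. Of all genes tested, 166 passed between TG and WT untreated, 7 after DSS and 41 in the interaction. In the pairs of TG DSS and untreated TG the correlations were -0.29 and -0.219.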

Other observations

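For 3 subunit genes outside the symbol rule, chosen for their function, the values were as follows. Usmg5, a small subunit of ATP synthase, read 101, 104 and 116 CPM in untreated WT and 145 and 130 CPM after DSS, a rise of 0.37 on the log2 scale (SE 0.11, adjusted p = 0.046, edgeR). In TG, Usmg5 read 117, 134 and 114 CPM untreated and 147 and 150 CPM after DSS (0.29, SE 0.11, adjusted p = 0.182). Cyc1, cytochrome c1 of complex III, read 471, 532 and 489 CPM in untreated WT and 411 and 416 CPM after DSS (-0.27, SE 0.14, adjusted p = 0.203). Ndufab1, the mitochondrial acyl carrier protein, read 92.3, 98.4 and 102 CPM in untreated WT and 101 and 95.1 CPM after DSS (0.01, SE 0.11, adjusted p = 0.971).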
